A study of Mus musculus with 10 samples.

Results

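The genes described here are the mouse Zfp zinc finger genes that are expressed in isolated cardiac myocytes. They were chosen as protein-coding genes whose symbol is Zfp followed by digits only and whose mean FPKM (fragments per kilobase of transcript, scaled to library size) over all 10 libraries was at least 1, without Zfp36 and Zfp90. The deposited files held 371 gene IDs with such a symbol, 364 of them protein-coding. Of these, 142 had a mean below 1 FPKM, 7 of them at 0 in every library, and 222 reached it. After Zfp36 and Zfp90 were left out, 220 members remained of 45882 gene IDs in all. Members were thus chosen by their mean FPKM, which covered all 3 groups together and no comparison between them. It was 1.01 for Zfp992, 1.01 for Zfp462 and 1.02 for Zfp59, the members just inside the threshold, and 0.970 for Zfp513, 0.970 for Zfp282 and 0.962 for Zfp212, just outside it. Members are weakly expressed genes: 83 lay between 1 and 2 FPKM, 16 reached 10 FPKM, and the median was 2.49 FPKM. Leaving out the group in which a gene was highest would have taken 12 members below 1 FPKM. Such a member was kept because 1 group is high in it, so a difference between its groups follows from the choice and supports nothing. Of the 12, 11 were tested, and 5 of these were called in a comparison with control: Zfp972, Zfp992, Zfp467, Zfp72 and Zfp688. Their values are given as a description, and the main counts are given without the 11 as well.

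Most Zfp genes encode proteins with arrays of C2H2 zinc fingers, in which a pair of cysteines and a pair of histidines hold a zinc ion and each finger reads a short stretch of DNA. Many also carry a KRAB domain at the amino terminus, which recruits the corepressor TRIM28 and, through it, the histone methyltransferase SETDB1, heterochromatin proteins and histone deacetylases. Such proteins silence transposable elements and nearby genes, and their genes lie in tandem clusters that expanded by duplication, several of them in the rodent lineage.

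The study sequenced RNA of left ventricular myocytes that had been isolated from C57BL/6 mice. The groups were control (genotype control, 3 libraries), CTCF knockout (genotype CTCF_knockout, 4 libraries) and TAC (3 libraries), in which transverse aortic constriction, a narrowing of the aorta, puts the heart under pressure overload. CTCF, an architectural protein at the base of chromatin loops, has zinc fingers of its own. The labels give each library its own mouse number, but no age, no sex, no time after surgery, no driver of the deletion and no genotype for the TAC mice. No batch is labelled. Ctcf was at 8.81, 8.34 and 6.80 FPKM in the control libraries, 2.90, 4.01, 2.60 and 4.42 in the knockout libraries and 7.32, 5.70 and 5.22 in the TAC libraries. The knockout libraries were thus all below the others, with 3.48 ± 0.871 FPKM (SD, n = 4) against 7.99 ± 1.05 FPKM (SD, n = 3) in control.

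For each transcript the files give FPKM and a coverage value, and read totals per library are unknown. Median coverage per FPKM, which moves with depth, was 3.90 to 6.09 over the libraries. Xist was at 1 FPKM or more in 2 of 3 control, 3 of 4 knockout and 1 of 3 TAC libraries and near 0 in the others, and its part in the results was tested with Xist level as a covariate. All 6 myocyte markers checked (Myh6, Tnnt2, Actn2, Ryr2, Tnni3 and Myl2) were present in every library, and their summed level was 22123 to 24105 FPKM in control, 15854 to 21057 in knockout and 16787 to 21888 in TAC. Lists of other cell types moved with the groups. The sum of 7 fibroblast markers was 72.4 to 132 FPKM in control, 161 to 237 in knockout and 216 to 233 in TAC. The sum of 5 cell cycle genes was 1.19 to 1.93, 10.8 to 44.5 and 3.20 to 7.02 FPKM in the same order, and that of 6 liver genes was 6.20 to 9.26, 0.519 to 2.19 and 0.959 to 1.31 FPKM, with Alb, Apoa1, Serpina1c and Fgb at 0 in at least 1 library. The summed markers of endothelial cells were 45.4 to 60.0, 53.2 to 101 and 64.9 to 94.6 FPKM, of macrophages and leukocytes 22.3 to 29.3, 25.1 to 40.4 and 35.2 to 40.7, of smooth muscle and pericytes 73.3 to 97.0, 46.4 to 61.9 and 59.7 to 62.5, and of erythroid cells 168 to 719, 75.0 to 375 and 546 to 947. The part of these differences in the results below was not tested. In RNA from many cells, fewer cells of a type and less RNA per cell cannot be told apart.

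The members lay on 20 chromosomes, with 51 on chromosome 7, 24 on chromosome 17 and 18 on chromosome 2. Annotated Zfp genes were chained along each chromosome while the starts of neighbours were at most 1 Mb apart, and a chain with at least 3 members was called a cluster. This gave 22 clusters with 118 members and left 102 members scattered. The largest were on chromosome 17 (12 members), on chromosome 7 (11 members) and near the distal end of chromosome 2 (10 members). The last of these held the member that fell furthest in each comparison with control, and the promoters of its members are shown first because they are nearly copies of each other. The RefSeq promoter table (build GRCm38.p6, from 250 bases before to 50 bases after the start) held 9 of its 10 members, with no entry for Zfp969. A stretch of 120 bases, lying wholly before the start site, was the same in every base in Zfp970 (chr2:177464588-177464707, plus strand) and in Zfp968, Zfp965, Zfp966, Zfp967 and Zfp973. Zfp971 (chr2:178023121-178023240, plus strand) differed from it in 1 base, Zfp931 (chr2:178078499-178078618, minus strand) in 3 and Zfp972 (chr2:177925703-177925822, minus strand) in 13. The lines below run 5′ to 3′ on the strand of the gene, and capitals mark bases that differ from Zfp970.
Zfp970: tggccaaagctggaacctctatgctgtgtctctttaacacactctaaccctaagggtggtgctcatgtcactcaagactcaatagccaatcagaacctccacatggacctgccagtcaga
Zfp971: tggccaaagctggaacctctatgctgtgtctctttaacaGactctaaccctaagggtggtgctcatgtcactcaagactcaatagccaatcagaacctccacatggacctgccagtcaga
Zfp931: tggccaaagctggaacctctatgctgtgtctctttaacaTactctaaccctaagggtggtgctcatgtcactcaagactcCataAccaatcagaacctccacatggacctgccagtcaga
Zfp972: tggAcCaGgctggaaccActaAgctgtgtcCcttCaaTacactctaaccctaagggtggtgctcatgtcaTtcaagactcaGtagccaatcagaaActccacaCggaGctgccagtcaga

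The longest run of bases common to all 9 promoters was 30 bases long (actctaaccctaagggtggtgctcatgtca). It was found in 33 of the 32851 promoters of the table, and all 33 lay on distal chromosome 2. The letters CCAAT, the core of a promoter box bound by the factor NF-Y, were in all 9 promoters on one strand or the other, against 48.9% of the members' 219 promoters and 37.4% of all promoters in the table. A motif like the core of the CTCF site, searched on either strand, was in 0 of the 9, against 9.33% of all promoters. Since the 9 promoters are near copies, their matches are not independent of each other.

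All 10 members of the distal chromosome 2 cluster fell in CTCF knockout myocytes, and 9 of the 10 fell in TAC myocytes, all but Zfp969. Without Zfp972, which reached 1 FPKM only through control, this was 9 of 9 and 8 of 9. Across all 11358 genes tested with limma on log2(FPKM + 1), 10.2% fell in knockout and 7.37% fell in TAC at a Benjamini-Hochberg adjusted p under 0.05, the threshold used throughout. Log2 fold changes on this scale understate the change of genes near 1 FPKM. The cluster spans chr2:174643534-178078476 in the mm10 coordinates of the files and holds 11 annotated Zfp genes. The median log2 fold change of its 10 members was -0.95 in knockout and -0.70 in TAC, against -0.00785 and -0.00481 for all tested genes. Both comparisons use the same 3 control libraries.

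Zfp970 (ENSMUSG00000078866), the most abundant member of the cluster, encodes a protein with 14 finger patterns and a KRAB pattern. It was at 147, 92.4 and 85.2 FPKM in the control libraries, 40.1, 42.9, 32.8 and 33.3 in knockout and 45.3, 46.5 and 49.5 in TAC. Every knockout and every TAC library was below every control library, and control library 1 stood above the other two. In limma it changed by -1.48 ± 0.17 on the log2 scale (SE, adjusted p = 0.000207) in knockout and by -1.14 ± 0.18 (SE, adjusted p = 0.00205) in TAC. Zfp971, with 12 finger patterns, was at 26.2, 21.2 and 23.1 FPKM in control, 12.6, 11.4, 12.1 and 12.5 in knockout and 15.9, 14.1 and 14.7 in TAC. Its groups did not overlap either, and its libraries were closer to each other within each group than those of Zfp970. Log2 fold changes were -0.90 ± 0.10 (SE, limma adjusted p = 0.00012) and -0.62 ± 0.10 (SE, limma adjusted p = 0.00231).

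Zfp972, whose annotated protein of 139 residues holds no finger pattern, was at 3.28, 2.68 and 2.02 FPKM in control. It was at 0.797, 0.827, 0.828 and 1.16 in knockout and at 0.676, 0.651 and 0.451 in TAC, so that every TAC library was below every knockout library and these below every control library. Its mean was 33.9% of control in knockout and 22.3% in TAC. Its log2 fold changes, -0.93 in knockout and -1.19 in TAC, are given with no test because its libraries outside control averaged 0.769 FPKM and control alone carried it past the threshold. Zfp969, which was not called in TAC, was at 12.2, 7.02 and 7.27 FPKM in control, 4.31, 3.97, 2.98 and 3.88 in knockout and 5.61, 4.77 and 6.78 in TAC. The TAC libraries lay below the control libraries here too, at a log2 fold change of -0.52 (limma adjusted p = 0.091).

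Zfp968, Zfp965 and Zfp966 were at 44.8%, 46.7% and 42.7% of the control mean in knockout and at 53.9%, 52.8% and 48.2% in TAC. Zfp967, Zfp973 and Zfp931 fell less, to 50.8%, 60.9% and 67.2% of control in knockout and 56.3%, 69.3% and 66.8% in TAC. No member of the cluster was called between knockout and TAC, where 1.58% of all tested genes rose and 1.7% fell. In knockout all 10, with Zfp972 counted, stayed called whichever single library was left out. In TAC between 6 (without TAC library 2) and 9 did, with 7 without control library 1, the library in which 9 of the 10 members were highest among the controls. The TAC calls that depended on 1 library were those of Zfp931 (control library 2 or 3, TAC library 2), Zfp967 (control library 1, TAC library 1 or 2) and Zfp973 (control library 1, TAC library 2 or 3). With Xist level as a covariate 7 of the 10 were called in TAC, without Zfp967 and Zfp973, and with only control and TAC libraries in the fit 6 were, without Zfp931 as well.

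**Figure D1:**
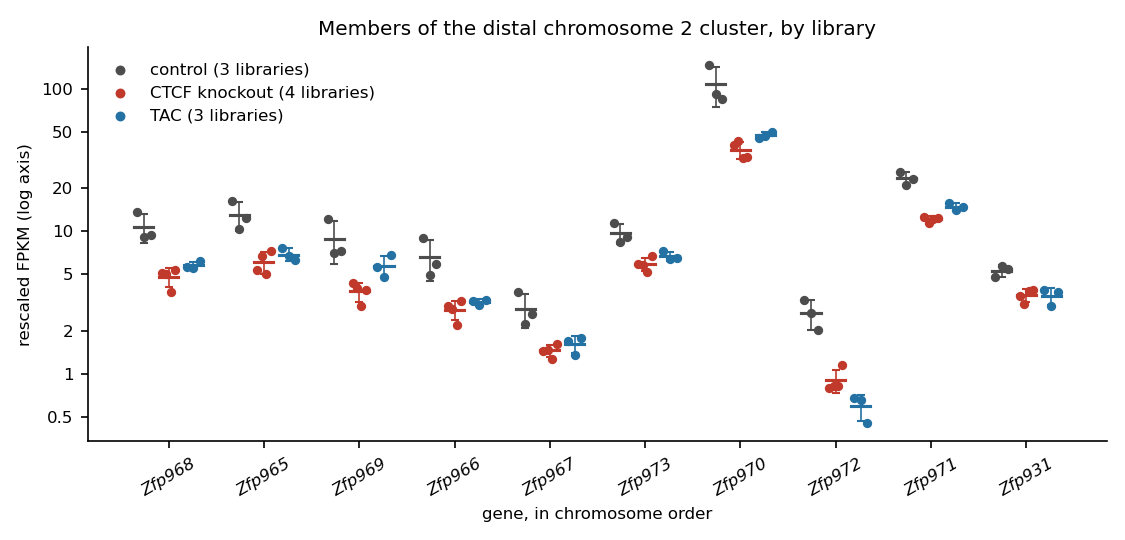
Rescaled FPKM of the 10 members of the distal chromosome 2 cluster on a log axis, in chromosome order; points are libraries, horizontal bars are means and whiskers are SD (3 control, 4 CTCF knockout and 3 TAC libraries). Knockout and TAC libraries lie below the control libraries for every gene shown.

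These 10 genes are close copies, which limits what the value of any one of them means. The share of a member's 100-base words (the labelled read length) that also occur in transcripts of another gene was 100% for Zfp967 and Zfp969, 93.4% for Zfp965, 88.6% for Zfp968, 86.2% for Zfp973 and 79.9% for Zfp966. It was 32.0% for Zfp972, 22.1% for Zfp971, 17.4% for Zfp970 and 7.96% for Zfp931. How reads were divided among the copies is therefore uncertain, most of all for the first 6 but also for Zfp972, Zfp971 and Zfp970. Zfp931, with the lowest share, fell by 0.47 on the log2 scale in knockout (limma adjusted p = 0.0123) and by 0.48 in TAC (limma adjusted p = 0.0194). A sum over the 10 members still depends on that division, because FPKM is per kilobase of transcript and their exons cover 864 to 3042 bases. It also depends on division with other genes of the region. The sum was 191 ± 48.4 FPKM (SD, n = 3) in control, 78.7 ± 6.24 (SD, n = 4) in knockout and 96.0 ± 3.66 (SD, n = 3) in TAC. By library it was 247, 164 and 163 FPKM in control, 82.1, 84.0, 69.9 and 78.9 in knockout and 96.8, 92.0 and 99.2 in TAC. The sum in knockout was 41.2% and in TAC 50.2% of control, and no library of either group reached the lowest control library.

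Other genes of the same span fell too. It holds 37 further tested genes, most with Gm symbols, of which 29 have a coding sequence in GENCODE and 22 of these encode at least 1 finger pattern. In knockout 22 of the 37 fell (59.5%) and 2 rose, with a median log2 fold change of -0.44. In TAC 17 fell (45.9%) and 1 rose, with a median of -0.38. Of all tested genes, 10.2% fell and 10.6% rose in knockout, and 7.37% fell and 8.08% rose in TAC. Among the 37, 6 passed 1 FPKM only through their highest group, 5 of them through control. Without these 6, 18 of 31 fell and 1 rose in knockout and 14 fell and 1 rose in TAC. The summed level of all 37, with these 6, was 57.2% of control in knockout and 64.2% in TAC, and that of all 47 tested genes of the span was 49.6% and 57.5%. The gene that rose in both comparisons was Edn3, which encodes the peptide endothelin 3 and lies 0.117 Mb from the first gene of the cluster. Of the 23 tested genes within 2 Mb on either side, 2 rose and 2 fell in each comparison (8.7% each), near the shares of all tested genes. Their medians were 0.03 in knockout and -0.01 in TAC. The span and its flanks were compared after the values of the members had been seen. The promoter held the 30-base run in 28 tested genes of the span, members among them. Of these 28, 20 fell and 1 rose in knockout, and 16 fell and 0 rose in TAC. Of the 19 without it or without a promoter entry, 12 fell and 1 rose in knockout, and 10 fell and 1 rose in TAC.

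**Figure D2:**
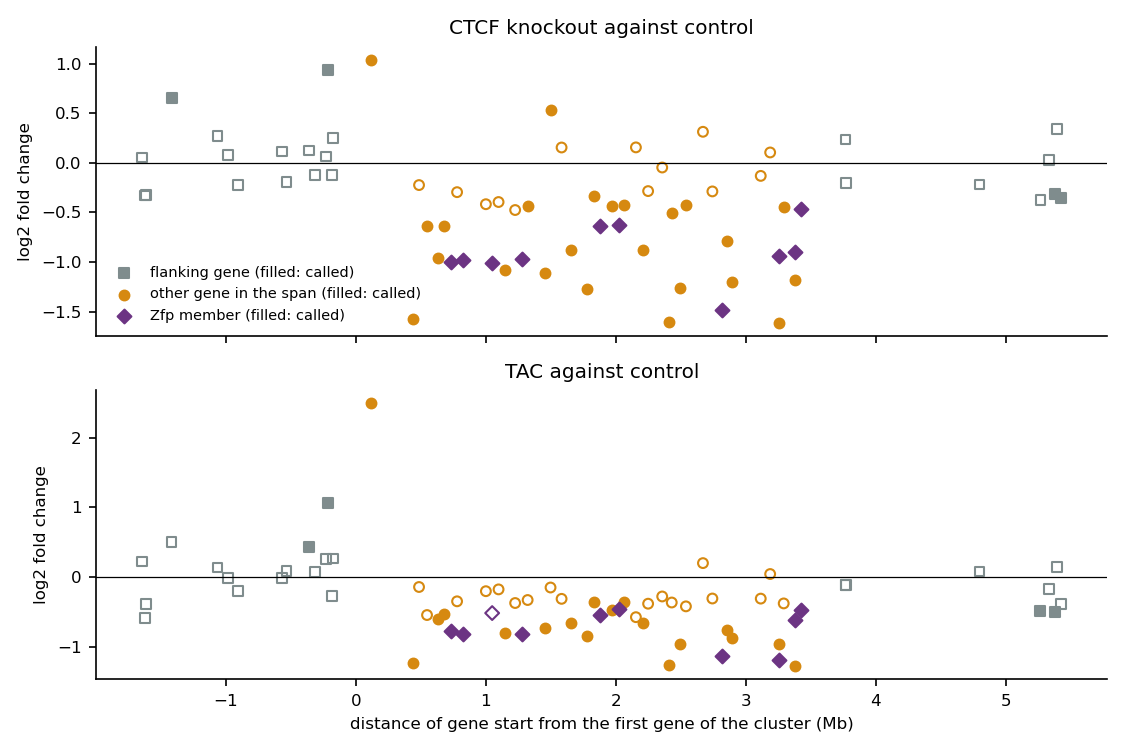
Log2 fold change of every tested gene of the distal chromosome 2 cluster and its flanks, for CTCF knockout (top) and TAC (bottom) against control, by the distance of the gene start from the first gene of the cluster in Mb; filled symbols are called at an adjusted p under 0.05. Below 0 lie all 10 members in both panels and 31 of the other 37 genes of the span in knockout, while the flanking genes lie on both sides of 0.

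Over all members, 33 fell and 6 rose in CTCF knockout myocytes among the 219 tested. Zfp462 dropped just under 1 FPKM after rescaling and was not tested. That is 15.1% of members fallen and 2.74% risen, where over all tested genes 10.2% fell and 10.6% rose. Without the 11 members that passed 1 FPKM only through their highest group, 31 of 208 fell and 5 rose. Without rescaling of the libraries the split was 20 fallen to 8 risen members. All 4 knockout libraries lay below all 3 control libraries for 59 members, where 16% of all tested genes did so, and above them for 11 members, where 14.8% did. The median log2 fold change was -0.12 for the members and -0.01 for all tested genes, and 151 of the 219 members were below 0. The number that fell was 22 to 32 when 1 library was left out, with 22 without control library 1, control library 3 or knockout library 2, and the number that rose was 3 without control library 2. Outside the distal chromosome 2 cluster, 23 of 209 fell, by 0.29 to 0.81 on the log2 scale, and 6 rose. The share fallen there, 11%, is near the 10.2% of all tested genes, while 2.87% rose against 10.6%. Without the 10 members there that passed 1 FPKM only through their highest group, 22 of 199 fell and 5 rose.

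In TAC myocytes 35 of the 219 members fell and 6 rose. That is 16% of members fallen and 2.74% risen, where over all tested genes 7.37% fell and 8.08% rose. Without the same 11 members 32 of 208 fell and 6 rose. Without rescaling the split was 23 fallen to 7 risen, and with only control and TAC libraries in the fit 17 fell and 4 rose. The median was -0.17 on the log2 scale and 172 members were below 0. All 3 TAC libraries lay below all 3 control libraries for 83 members, where 15.7% of all tested genes did so, and above them for 13, where 16% did. The number that fell was 23 to 31 when 1 library was left out, the lowest without TAC library 3. The number that rose was 2 without control library 3, TAC library 2 or TAC library 3. Outside the distal chromosome 2 cluster, 26 of 209 fell and 6 rose. The share fallen there was 12.4% against 7.37% of all tested genes, and 2.87% rose against 8.08%. Without the 10 members there that passed 1 FPKM only through their highest group, 24 of 199 fell and 6 rose.

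The members' median in each library, taken as the log2 difference from the control mean, placed the 7 knockout and TAC libraries below the 3 control libraries. Without the distal chromosome 2 genes it was 0.06, -0.04 and -0.03 in control, -0.15, -0.09, -0.08 and -0.11 in knockout and -0.14, -0.18 and -0.22 in TAC. The same median over all tested genes lay between -0.0111 and 0.00598. The distal chromosome 2 members had medians of 0.32, -0.18 and -0.09 in the control libraries, so that their level varied between control libraries as well. The median coefficient of variation of the members within a group was 14.2% in control, 12.05% in knockout and 12.6% in TAC.

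**Figure D3:**
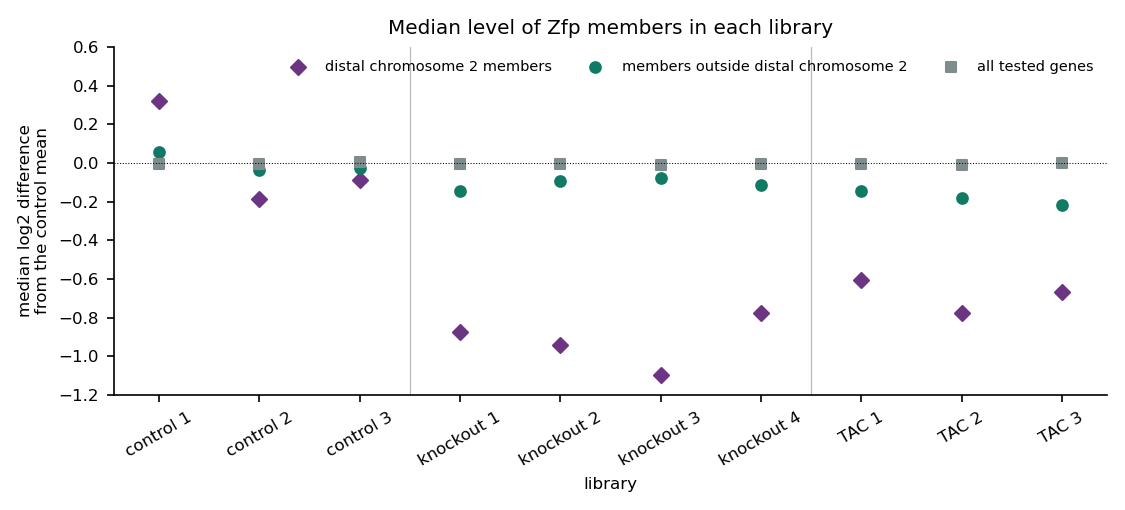
Median log2 difference from the control mean, per library, for the distal chromosome 2 members, the other tested members and all tested genes. All tested genes stay between -0.0111 and 0.00598, and both sets of members are lower in each of the 7 knockout and TAC libraries than in any control library.

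Among the other clusters, the one at chr17:21008941-23599487 had most members that fell. Of its 12 members 5 fell in knockout (Zfp758, Zfp943, Zfp51, Zfp942 and Zfp944) and 4 in TAC, the same without Zfp944. Of all tested genes, 10.2% fell in knockout and 7.37% in TAC. A KRAB pattern was found in 11 of the 12 members, the 5 that fell among them. In each of these 5, at most 2.38% of the 100-base words are shared with other genes. The highest shares in the cluster were 47.5% in Zfp213, which lacks the pattern, and 5.39% in Zfp994. Zfp943 was at 8.56, 7.54 and 7.94 FPKM in control, 5.54, 5.04, 4.91 and 5.08 in knockout and 4.73, 4.90 and 4.80 in TAC. Its libraries of both treated groups were close together and all below control, with log2 fold changes of -0.55 ± 0.09 (SE, limma adjusted p = 0.00118) and -0.63 ± 0.09 (SE, limma adjusted p = 0.0011). Zfp758 was at 4.54, 4.53 and 4.96 FPKM in control, 3.03, 2.37, 2.65 and 3.29 in knockout and 2.88, 2.64 and 2.22 in TAC, again without overlap. Zfp51 and Zfp942 fell by 0.49 and 0.43 in knockout and by 0.45 and 0.36 in TAC on the log2 scale. The call of Zfp944 in knockout (log2 fold change -0.35, limma adjusted p = 0.0417) was lost without any 1 of control libraries 1 and 3, knockout libraries 1, 2 and 3 and each TAC library. The call of Zfp942 in TAC (limma adjusted p = 0.0439) was lost without any 1 library other than knockout library 2. The other 7 members of the cluster were called in neither comparison, with log2 fold changes in knockout from -0.18 (Zfp229) to 0.42 (Zfp52).

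The cluster at chr7:29768552-30169727 held 11 members, with medians of -0.01 in knockout and -0.06 in TAC. Of the 11, 1 fell in each comparison. That share is near the 10.2% of all tested genes that fell in knockout and the 7.37% in TAC. The member that fell in knockout was Zfp14, at 3.15, 2.56 and 1.63 FPKM in control, 1.60, 1.19, 1.76 and 1.12 in knockout and 1.5, 1.58 and 1.41 in TAC. Control library 3 lay within the range of the knockout libraries, and the call (limma adjusted p = 0.0432) was lost without any 1 of control libraries 1 and 2, knockout libraries 1, 2 and 4 and each TAC library. In TAC it was Zfp260, a regulator of cardiac gene expression that acts with GATA4, at 10.8, 13.4 and 12.2 FPKM in control, 12.6, 11.8, 12.3 and 9.71 in knockout and 8.77, 8.54 and 9.13 in TAC. All TAC libraries were below the others, with a log2 fold change of -0.41 ± 0.12 (SE, limma adjusted p = 0.0336), a call that was lost without control library 2 or 3 or any TAC library. In knockout it was at -0.06 on the log2 scale (limma adjusted p = 0.742).

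In the other 19 clusters together, 7 of 85 members fell and 1 rose in knockout, and 11 fell in TAC. That is 8.24% fallen in knockout and 12.9% in TAC, against 10.2% and 7.37% of all tested genes. Some of these calls are of members that passed 1 FPKM only through their highest group. They are Zfp992, which fell in knockout, Zfp467, which fell in TAC, and Zfp688, the 1 that rose. The cluster at chr4:145510759-147848366, singled out after its values had been seen, had the lowest median after distal chromosome 2, at -0.51 in knockout and -0.39 in TAC over 6 members. Zfp982 and Zfp991 fell there in knockout and Zfp933 in TAC. Zfp992, at 48.8% of control in knockout, was called too but passed 1 FPKM only through control. Of their 100-base words, 70.3% in Zfp991 and 28.6% in Zfp992 are shared with other genes. In all clusters but that of distal chromosome 2, 13 of 108 members fell and 1 rose in knockout, and 16 fell and 0 rose in TAC (limma). These counts again include Zfp992, Zfp467 and Zfp688. Among the 101 tested scattered members, 10 fell and 5 rose in knockout, and 10 fell and 6 rose in TAC. Zfp72, which passed 1 FPKM only through control, is among the scattered members that fell in TAC. The shares fallen in knockout, 12% in these clusters and 9.9% among scattered members, are near the 10.2% of all tested genes, and those in TAC were 14.8% and 9.9% against 7.37%. Medians were -0.10 in clusters without distal chromosome 2 and -0.09 among scattered members in knockout, and -0.18 and -0.13 in TAC.

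**Figure D4:**
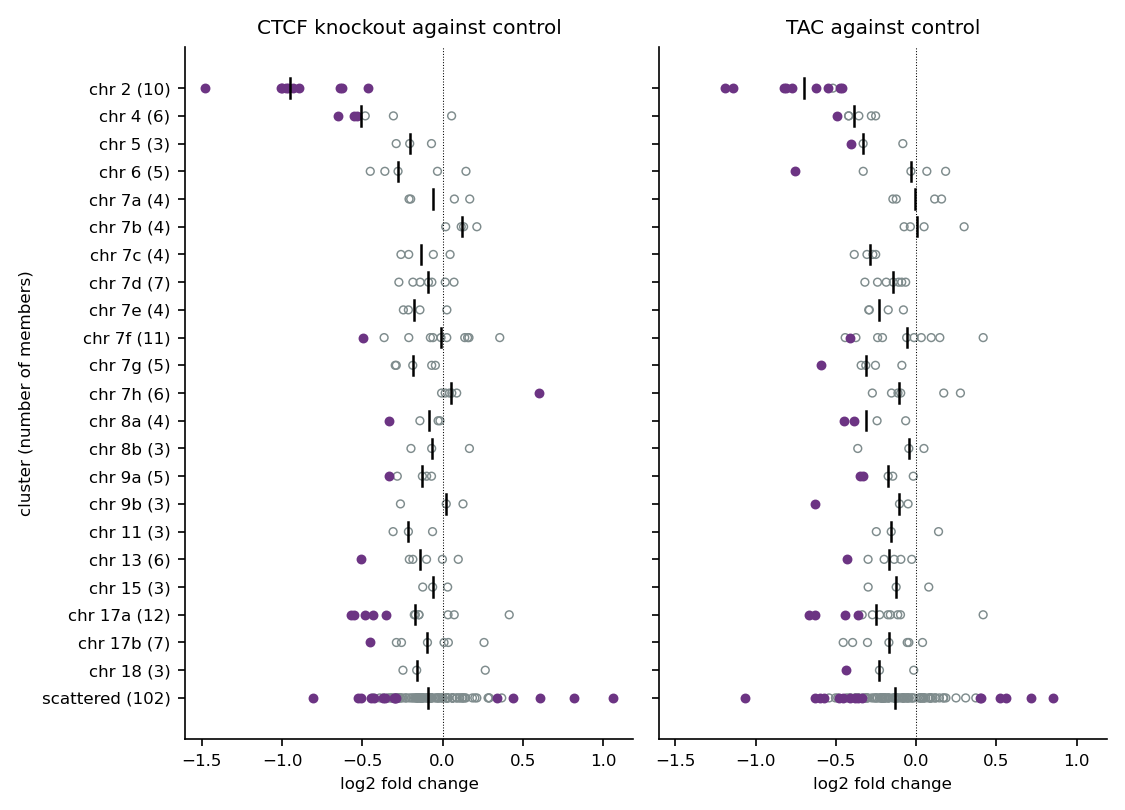
Log2 fold change of the tested members in each of the 22 clusters and of the 101 tested scattered members, for CTCF knockout and TAC against control; letters number the clusters along a chromosome, numbers in brackets count members, filled points are called and vertical bars are medians. The chromosome 2 cluster is the only one in which most members were called in both comparisons.

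All members that rose were scattered but Zfp688, which lies in a cluster on chromosome 7. Zfp697 (chromosome 3, 11 finger patterns) was at 4.35, 3.44 and 2.49 FPKM in control, 6.64, 10.6, 7.54 and 8.04 in knockout and 5.09, 8.01 and 7.87 in TAC. It was higher in every knockout and TAC library than in any control library, at 240% of the control mean in knockout and 204% in TAC. The log2 fold changes were 1.06 ± 0.19 (SE, limma adjusted p = 0.0028) and 0.85 ± 0.20 (SE, limma adjusted p = 0.0158), the second lost without control library 3, TAC library 2 or TAC library 3. Zfp641 (chromosome 15) was at 1.55, 1.66 and 1.76 FPKM in control, 3.45, 3.38, 4.17 and 3.74 in knockout and 2.21, 2.76 and 2.52 in TAC. The groups formed 3 levels without overlap, with knockout highest. Log2 fold changes were 0.82 ± 0.10 (SE, limma adjusted p = 0.000318) in knockout and 0.40 ± 0.11 (SE, limma adjusted p = 0.0309) in TAC, the second lost without any 1 control library, TAC library 2 or TAC library 3.

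Zfp622, which encodes a factor in the maturation of the large ribosomal subunit, was at 4.06, 4.86 and 4.62 FPKM in control, 6.71, 6.15, 7.01 and 6.04 in knockout and 5.63, 6.26 and 5.57 in TAC. Both treated groups lay above control. It rose in knockout (log2 fold change 0.44, limma adjusted p = 0.00778) and did not pass the test in TAC (0.31, limma adjusted p = 0.0633). Zfp651 was at 10.3, 11.9 and 11.8 FPKM in control, 14.2, 14.4, 14.6 and 15.04 in knockout and 19.2, 21.6 and 17.01 in TAC. Here TAC was highest, with log2 fold changes of 0.34 (limma adjusted p = 0.0318) in knockout and 0.72 (limma adjusted p = 0.00128) in TAC. The first was lost without any 1 control or knockout library. Zfp608 also rose in knockout, by 0.60 (limma adjusted p = 0.0209), a call lost without control library 2 or knockout library 4. Zfp688, at 236% of control in knockout, passed 1 FPKM only through knockout, and its call was lost without any 1 control library, knockout library 1 or knockout library 3. Zfp704 rose in TAC by 0.56 (limma adjusted p = 0.0401), a call lost without control library 2 or 3, knockout library 2 or any TAC library. Exons of Zfp697, Zfp608 and Zfp704 overlap genes on the opposite strand, and 17.2% of the 100-base words of Zfp704 are shared.

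Of the scattered members that fell, Zfp612 (chromosome 8, 16 finger patterns and a KRAB pattern, no shared 100-base word) fell furthest. It was at 6.27, 4.81 and 3.45 FPKM in control, 2.27, 1.91, 2.44 and 2.53 in knockout and 1.82, 1.69 and 1.68 in TAC. The groups did not overlap, TAC was lowest, and the control libraries were spread widely. Log2 fold changes were -0.81 ± 0.15 (SE, limma adjusted p = 0.00327) and -1.07 ± 0.16 (SE, limma adjusted p = 0.0013). Zfp467, a member of a chromosome 6 cluster known as a regulator of bone and fat cell differentiation, was at 1.35, 1.55 and 2.1 FPKM in control, 1.22, 0.969, 0.728 and 0.869 in knockout and 0.707, 0.227 and 0.852 in TAC. Its log2 fold changes were -0.75 in TAC and -0.45 in knockout, given with no test because it passed 1 FPKM only through control.

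Between knockout and TAC, 1 of the 219 members was higher in knockout and 2 were lower, where 1.58% of all tested genes rose and 1.7% fell. Without rescaling the split was 2 higher to 1 lower. Zfp641, described above, was higher in knockout (log2 fold change 0.42, limma adjusted p = 0.048). Zfp770 was at 6.15, 6.02 and 6.23 FPKM in control, 4.98, 6.36, 6.34 and 5.51 in knockout and 9.04, 10.3 and 8.46 in TAC. Every TAC library was above all others while the knockout libraries overlapped with control. The difference between knockout and TAC was -0.59 ± 0.10 (SE, limma adjusted p = 0.0136), and TAC rose against control by 0.52 (limma adjusted p = 0.00988).

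Zfp106, the most abundant member, encodes an RNA-binding zinc finger protein required by motor neurons and muscle. It was at 179, 173 and 156 FPKM in control, 152, 179, 145 and 169 in knockout and 235, 223 and 215 in TAC. TAC was highest without overlap, and knockout and control overlapped. Log2 fold changes were 0.40 ± 0.11 (SE, limma adjusted p = 0.0315) in TAC and -0.48 ± 0.10 (SE, limma adjusted p = 0.0333) for knockout against TAC. Its exons overlap those of Gm26899 on the opposite strand over 2719 bases, and whether the counting used strand is not given in the sources used here, so reads of the 2 genes cannot be told apart over that stretch, which is part of the 10429 exon bases of Zfp106. Leaving out 1 library ended the Zfp641 difference in every case but control library 1, the Zfp106 difference without knockout library 1 or 3 or any TAC library, and the Zfp770 difference without TAC library 2. The rise of Zfp106 in TAC was lost without control library 2 or 3 or any TAC library. The next most abundant members after Zfp970, Zfp91 (an E3 ubiquitin ligase) and Zfp207 (a spindle assembly factor), had means of 24.0 and 27.5 FPKM in control, 21.8 and 22.4 in knockout and 27.4 and 23.1 in TAC, and neither was called in any comparison.

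**Figure D5:**
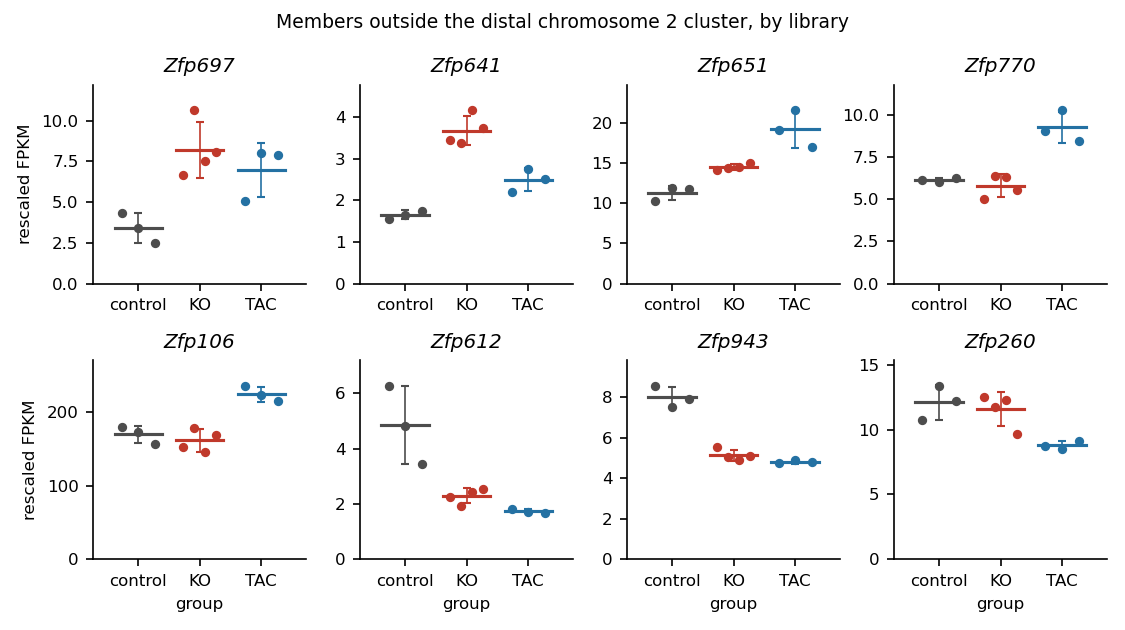
Rescaled FPKM by library of 8 members outside the distal chromosome 2 cluster; points are libraries, bars are means and whiskers are SD (3 control, 4 CTCF knockout, marked KO, and 3 TAC libraries), with each axis from 0. Zfp697, Zfp641 and Zfp651 are higher than control in both groups, Zfp770 and Zfp106 in TAC alone by the test, Zfp612 and Zfp943 are lower in both, and Zfp260 was called lower in TAC.

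The members differ in what their proteins hold. From GENCODE coding sequences, the number of finger patterns ranged from 0 to 36 with a median of 10.5, and a KRAB pattern was found in 104 members. Of these 104, 24 fell (23.1%) and 1 rose in knockout and 23 fell (22.1%) and 0 rose in TAC (limma). Of the 115 tested members without the pattern, 9 fell (7.83%) and 5 rose in knockout and 12 fell (10.4%) and 6 rose in TAC. These counts include called members that passed 1 FPKM only through their highest group. With the pattern they are Zfp992, which fell in knockout, and Zfp688, the 1 that rose. Without the pattern they are Zfp972, which fell in both comparisons, and Zfp467 and Zfp72, which fell in TAC. Over all tested genes 10.2% fell and 10.6% rose in knockout, and 7.37% fell and 8.08% rose in TAC. The medians with and without the pattern were -0.17 and -0.07 in knockout and -0.28 and -0.12 in TAC. The distal chromosome 2 cluster gave 9 of the 104. Without it, 15 of 95 members with the pattern fell in each comparison. This share of 15.8% stands against 10.2% of all tested genes in knockout and 7.37% in TAC. A first, stricter pattern, found in 92 members, gave the same counts of 24 and 23 that fell. These counts are a description, and the pattern was widened after its matches had been seen.

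The counts were also taken by level and by shared sequence. Among members under 2 FPKM 8 of 82 fell in knockout, among those from 2 to 5 FPKM 15 of 80, and among those of 5 FPKM or more 10 of 57. In TAC 6, 13 and 16 fell in the same order. The shares were 9.76%, 18.8% and 17.5% in knockout, against 10.2% of all tested genes, and 7.32%, 16.2% and 28.1% in TAC, against 7.37%. Under 2 FPKM the 8 include Zfp972 and Zfp992 and the 6 include Zfp972, Zfp467 and Zfp72, which passed 1 FPKM only through control. Of the 127 members with no shared 100-base word, 13 fell and 6 rose in knockout and 18 fell and 4 rose in TAC. Of the 40 members with over 10% of these words shared, 12 fell in knockout and 10 in TAC. Of these 40, 9 belong to the distal chromosome 2 cluster, and among the other 31, 3 fell in knockout and 2 in TAC. That is 9.68% in knockout, where 10.2% of the members with no shared word and 10.2% of all tested genes fell. In TAC these shares were 6.45%, 14.2% and 7.37%. The members with no shared word include Zfp467 and Zfp72, which fell in TAC, and Zfp688, which rose in knockout. The other 31 include Zfp992, which fell in knockout. Each of these passed 1 FPKM only through its highest group. The promoter table matched 180 members. The CTCF-like motif was in 12.8% of their 219 promoters, against 9.33% of all promoters. Of the 25 members with it 0 fell and 1 rose in knockout (limma), and of the 155 without it 25 fell and 4 rose. In TAC 1 of the 25 fell and 0 rose, and 31 of the 155 fell and 5 rose. All 9 matched distal chromosome 2 members are among the 155. Without them 16 of 146 fell in knockout, which is 11% against 10.2% of all tested genes. For TAC it was 22 of 146, which is 15.1% against 7.37%.

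A list of 44 gene symbols was drawn up for proteins through which KRAB zinc finger proteins act. The symbol Tasor, a later name of Fam208a, matched no gene in the files, but Fam208a is also on the list and was tested. The other 43 symbols had a gene in the files, and 39 were tested. In knockout 4 rose and 0 fell, in TAC 1 rose and 5 fell (limma), and the medians were 0.04 and -0.01. The share that rose in knockout, 10.3%, is near the 10.6% of all tested genes, and the share that fell in TAC was 12.8% against 7.37%. Trim28, the corepressor itself, was at 14.9 ± 1.19 FPKM in control (SD, n = 3), 13.4 ± 1.48 in knockout (SD, n = 4) and 14.1 ± 0.603 in TAC (SD, n = 3), and was not called. Setdb1, the methyltransferase, was at 3.88 ± 0.717, 3.41 ± 0.433 and 3.22 ± 0.606 FPKM in the same order, also not called. Ehmt2, which encodes the histone methyltransferase G9a, rose in both, by 0.54 in knockout (limma adjusted p = 0.00388) and 0.56 in TAC (limma adjusted p = 0.00678). The other 3 that rose in knockout were Daxx, a histone chaperone (0.37), Kdm1a, a histone demethylase (0.32), and Resf1, which binds SETDB1 (0.71). In TAC the heterochromatin proteins Cbx1 and Cbx3 fell by 0.43 and 0.41, the remodeller Chd3 by 0.74, the deacetylase Hdac2 by 0.41 and Sumo2, a small protein modifier, by 0.60. Cbx5 was not called, at 0.36 in knockout and 0.33 in TAC. Chd3 was higher in knockout than in TAC, by 0.64 (limma adjusted p = 0.017).

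Other zinc finger families were counted in the same fit. Of 31 tested Zbtb genes, 3 fell and 2 rose in knockout and 1 fell in TAC, with medians of -0.05 and -0.04. The share of Zbtb genes that fell in knockout, 9.68%, is near the 10.2% of all tested genes. Of 15 Zscan and Zkscan genes 1 rose in knockout and 1 fell in TAC (6.67% each), and of 11 Klf genes 2 fell in each (18.2%). Over all tested genes 10.6% rose in knockout, while 10.2% fell in knockout and 7.37% in TAC. The difference between these families and the members was not tested.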

How the data were processed

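The deposited files give FPKM (a score column of the same files was not used) for each transcript of 10 libraries of isolated myocytes. Per the submitters' processing notes the authors used TopHat2 2.1.0, Bowtie2, Cufflinks 2.2.1, Cuffdiff and build mm10, and per the labels' protocols reads were 2 x 100 bases from a stranded kit. The labels say polyA RNA while the protocol removes ribosomal RNA. The files hold a coverage value per transcript, used here to compare depth, and no counts.

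Transcript FPKM was summed by gene ID. A median-of-ratios factor (0.912 to 1.1) rescaled each library, and all FPKM values printed by library are rescaled. Genes with a mean of at least 1 FPKM and a longest transcript of at least 300 bases were tested (11358 gene IDs), after 22 gene IDs with zeros in some libraries but 100 FPKM or more in others were set apart. log2(FPKM + 1) was fitted for all 10 libraries with limma 3.58.1 (R 4.3.3, variance trend), with two-sided p values adjusted by Benjamini-Hochberg over all tested genes. The fit was tested on simulated data. P values measure the spread between mice, each library having its own mouse number. Alternatives covered pseudocount, filters, rescaling, variance settings, replicate block, Xist level and each library left out.

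Named were the called members, at most the 8 highest and 8 lowest per comparison, the called members of the 3 largest clusters, the 5 most abundant members and those nearest the threshold. The members, lists and rules were chosen with earlier results of these data known. The chromosome 2 span and flanks, the CCAAT letters, the 30-base run, the 10% limit on shared words, the counts without members that passed 1 FPKM only through their highest group and the wider KRAB pattern were chosen after values or matches of this work had been seen.

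Shared words were counted over all GENCODE release 21 mouse transcripts, both strands. Only exact matches were counted, so nearly identical words count as not shared. Finger patterns were C, 2 to 4 residues, C, 12 residues, H, 3 to 5 residues, H. These and the KRAB pattern, searched before the first finger in any coding isoform, came from translated GENCODE coding sequences in place of a RefSeq protein table that was not used here. A missing match says only that the letters are not there.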

Additional observations from a re-analysis of the deposited data

Results flagged for a closer look

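In the knockout group Zfp972 had 1 library apart from the other 3, at 1.16 FPKM in knockout library 4 against 0.797, 0.827 and 0.828. The gap was 0.914 of the range of the 4 libraries, above Dixon's critical value for 4. Of the named members, 28 were checked in this way, and chance marks about 1 in 20. Zfp972 remained below every control library in knockout library 4.

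The change against control differed between knockout and TAC for 3 members by limma's test of the difference itself. The log2 difference, knockout minus TAC, was 0.422 for Zfp641, higher in 4 of 4 knockout libraries than in any TAC library (adjusted p = 0.048, range over alternatives 0.0444 to 0.149). It was -0.594 for Zfp770, with 4 of 4 knockout libraries below every TAC library (adjusted p = 0.0136, range 0.0122 to 0.0578). It was -0.475 for Zfp106, also with 4 of 4 below (adjusted p = 0.0333, range 0.032 to 0.141).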

How the results depend on the processing

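Of 48 calls of named members, 29 passed in all alternatives that could be run, 19 were lost in at least 1, and 0 reversed direction. The 29 include the calls of Zfp972 in knockout and TAC and of Zfp467 in TAC, and the 19 include that of Zfp688 in knockout. These members passed 1 FPKM only through their highest group, so their calls support nothing. Counts below are of members called by limma, and the cause of each shift was not tested unless fewer genes entered. With a filter of 5 FPKM, which tests fewer members, 12 fell and 3 rose in knockout, 17 fell in TAC, 6 and 5 fell in the distal chromosome 2 cluster, and 2 were higher in knockout than in TAC. Without a filter on the mean 3 rose in TAC and 1 was lower in knockout than in TAC. Without rescaling 20 fell in knockout and 23 in TAC, and between knockout and TAC 2 were higher and 1 lower. Quantile normalization also gave 2 higher and 1 lower, and a pseudocount of 0.5 gave 2 higher. With robust variances 0 were higher. With Xist level as a covariate 3 rose in TAC, and 0 were higher and 1 lower in knockout than in TAC. With only the 2 groups compared, 17 fell in TAC and 0 were higher in knockout than in TAC. Without the members that share over 10% of 100-base words, an alternative added after seeing the data, 21 fell in knockout, 1 each fell in the distal chromosome 2 cluster in knockout and in TAC, and 1 was lower in knockout than in TAC.

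Leaving out 1 library gave 22 to 32 fallen and 3 to 6 risen members in knockout, 23 to 31 and 2 to 6 in TAC, and 0 to 3 higher and 0 to 2 lower in knockout than in TAC. Replicate numbers do not pair mice: deviations of same-numbered libraries correlated from -0.359 to 0.327. With the replicate block 22 fell and 5 rose in knockout, 30 fell and 6 rose in TAC, and 0 were higher and 0 lower in knockout than in TAC. Clusters numbered 19 with a largest gap of 0.25 Mb and 23 with 2 Mb.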
